A study of Mus musculus with 6 samples.

Results

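The miR-181 family was followed in membrane vesicles released by mouse PBMCs, the mononuclear white cells of peripheral blood. It was taken as 5 named rows of the deposited miRNA table: the 5p arms of miR-181a, miR-181b, miR-181c and miR-181d, and the 3p arm miR-181a-1-3p. All 5 were found among the 620 rows, and 2 further rows, miR-181a-2-3p and miR-181c-3p, carried the family's name. The rows were chosen by name, and the family was selected on the values of miR-181d-5p, which had been noted as higher in IS, so every difference between the groups that holds miR-181d-5p is given here as a description, without a test. Small RNA had been sequenced in 6 libraries, all labelled as wild-type mice, 3 of untreated cells (control) and 3 labelled IS-stimulated, an abbreviation left unexplained in the labels. The labels give no strain, age, sex, dose or time, and the plant compound of the series title, salvianolic acid B, is on none of the 6 labels. Whether replicates are separate animals or separate cultures is not on the labels either, so p-values reflect the spread of these libraries alone, possibly a technical one. Library totals ran from 125731 to 435468 counts, and levels are given as CPM, counts per 1000000 counts of the library. With 1278 counts, miR-181a-5p was by far the best measured member, followed by miR-181d-5p (193), miR-181b-5p (181), miR-181a-1-3p (95) and miR-181c-5p (11).

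A miRNA is cut from a hairpin precursor whose arms give a 5p and a 3p product, and the product that is retained guides silencing of messenger RNAs that pair with its seed, bases 2 to 8. The miR-181 family is encoded as pairs of neighbouring hairpins, and in the blood system it is best known from lymphocytes, where miR-181a tunes the sensitivity of T cell receptor signalling in the thymus and miR-181b restrains class switching in B cells. It is not exclusive to these cells, since endothelium, brain and muscle also express it. In such bulk libraries, fewer vesicles or cells of a type and less of a miRNA in each cannot be told apart.

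The mature sequences show how alike the members are and where they can be told apart, which bears on every count below. They are the RefSeq entries for GRCm38.p6, 5′ to 3′, with the seed in capitals.
miR-181a-5p: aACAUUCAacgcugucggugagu
miR-181b-5p: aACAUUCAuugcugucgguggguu
miR-181c-5p: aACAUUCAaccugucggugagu
miR-181d-5p: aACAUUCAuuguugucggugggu
miR-181a-1-3p: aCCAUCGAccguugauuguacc
miR-181a-2-3p: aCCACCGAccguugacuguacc
miR-181c-3p: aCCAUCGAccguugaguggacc
The 4 5p arms share 1 seed, and no other of the 1679 mature mouse names in the RefSeq table has it. Positions are counted from 1 at the 5′ end, with the base of the first miRNA before the position and that of the second after it. From miR-181a-5p to miR-181b-5p there are 3 substitutions, A9U, C10U and A21G, and 1 added base at the 3′ end. Between miR-181b-5p and miR-181d-5p there is a single substitution, C12U, beside the added base, and miR-181c-5p equals miR-181a-5p without its base 11. The 3p arms of miR-181a-1 and miR-181c share a seed as well and differ by 2 substitutions, U16G and U19G. How many mismatches the counting allowed, and how it placed reads that match several members, is not given in the sources used here, so the split of counts between miR-181b-5p and miR-181d-5p, and between miR-181a-5p and miR-181c-5p, is uncertain.

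The members come from 3 hairpin pairs, with coordinates as annotated by GENCODE on GRCm38; the build used by the authors may be another. Mir181a-1 (chr1:137966455-137966541) and Mir181b-1 (chr1:137966639-137966718) lie 97 bases apart on the plus strand, in an exon of the long non-coding RNA A430106G13Rik and in introns of Gm4258 (plus strand) and Gm26936 (minus strand). Mir181a-2 (chr2:38852735-38852810) and Mir181b-2 (chr2:38853830-38853918) are on the plus strand as well, 1019 bases apart, within introns of Nr6a1, an orphan nuclear receptor gene that runs on the minus strand, and Mir181b-2 also overlaps an exon of Gm44144 on that strand. Mir181d (chr8:84178716-84178787) and Mir181c (chr8:84178873-84178961) are 85 bases apart on the minus strand, in an intron of the germ cell gene Nanos3. Mature miR-181a-5p is the same from the chromosome 1 and chromosome 2 hairpins, and so is miR-181b-5p, so their counts join both pairs. Only the 3p arms tell these pairs apart: miR-181a-1-3p had 95 counts and was seen in all 6 libraries, while miR-181a-2-3p had 4 counts, all in control 1. The 3p arms of miR-181b and miR-181d had no row among the 620.

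Of the members, miR-181a-5p was the most abundant in every library and ranked 64 of the 620 rows by mean CPM. It stood at 529, 1059 and 983 CPM in control 1, 2 and 3, from 143, 249 and 428 counts, and at 342, 728 and 1399.8 CPM in IS 1, 2 and 3, from 51, 231 and 176 counts. The lowest and the highest library were both IS libraries, the groups overlapped, and the means of 857 ± 286 and 823 ± 535 CPM (SD, n = 3 per group) differed by less than either SD. From low to high the order was IS 1, control 1, IS 2, control 3, control 2 and IS 3. The 95% Wilson intervals of 2 pairs of neighbours in this order overlapped, those of control 3 and control 2 (894 to 1080.4 and 935 to 1198 CPM) and, at their very ends, those of IS 1 and control 1 (260.0 to 449.4 and 449.1 to 623 CPM). Such intervals cover counting error only, since the reads carry no molecular identifiers.

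Its hairpin neighbour miR-181b-5p was at 77.7, 204 and 115 CPM in control 1, 2 and 3, from 21, 48 and 50 counts, and at 40.2, 59.9 and 294 CPM in IS 1, 2 and 3, from 6, 19 and 37 counts. IS 1 was again the lowest and IS 3 the highest library, and the group means, 132 ± 65.0 and 131 ± 141 CPM (n = 3 per group), nearly coincided. The ratio of miR-181a-5p to miR-181b-5p counts lay between 4.76 (IS 3) and 12.2 (IS 2) in the 6 libraries. As log2 of the counts plus 0.5, this ratio was 2.73 ± 0.36 in control and 2.93 ± 0.67 in IS, a difference of 0.20 (exact permutation p = 0.8, two-sided, n = 3 per group, adjusted p = 0.8 over the 2 ratios so tested). With 3 libraries against 3 the smallest p this test allows is 0.1.

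**Figure D1:**
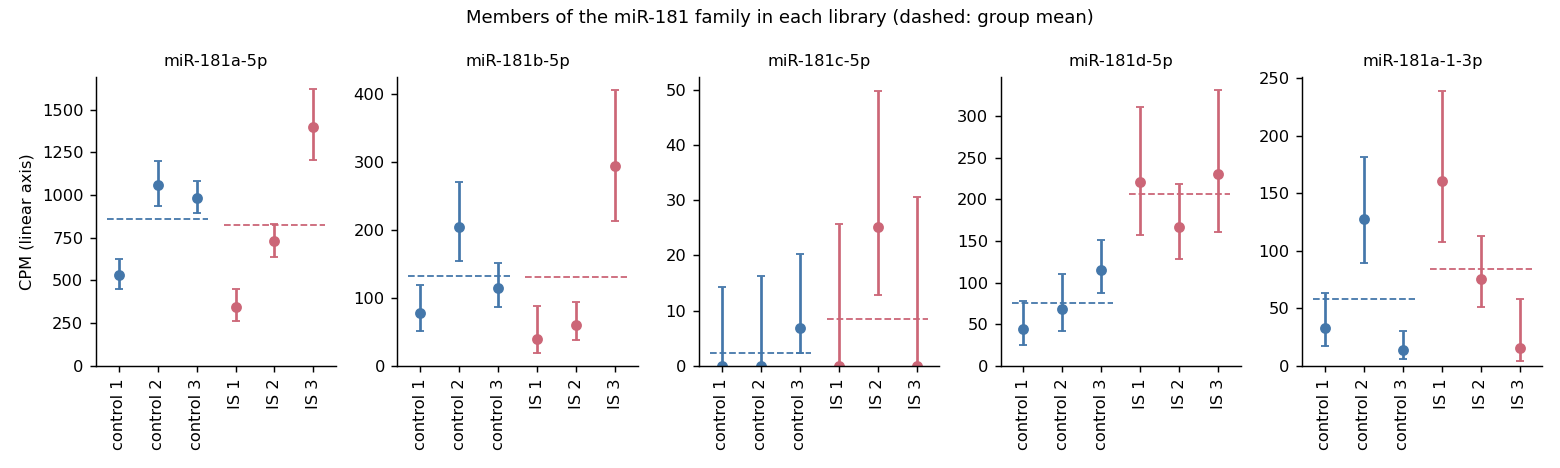
CPM (vertical, linear axes that differ between panels) of the 5 members in each of the 3 control (blue) and 3 IS (red) libraries, with 95% Wilson intervals for counting error and dashed group means. The control and IS points overlap in the panels of miR-181a-5p, miR-181b-5p, miR-181c-5p and miR-181a-1-3p, while the 3 IS points of miR-181d-5p (167 to 231 CPM) lie above the 3 control points (44.4 to 115 CPM).

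The chromosome 8 pair was uneven. For miR-181c-5p there were 3 counts in control 3 (6.89 CPM), 8 counts in IS 2 (25.2 CPM) and 0 in the other 4 libraries. These 2 libraries had the most counts in all, 435468 and 317323, and by the floor of 3 counts a count of 0 allows up to 11.1 and 12.8 CPM in control 1 and 2 and up to 20.1 and 23.9 CPM in IS 1 and 3. The upper ends of the 95% Wilson intervals, drawn in the plot of members by library, were 14.2, 16.3, 25.7 and 30.6 CPM. No difference between the groups was detectable at this depth, and no fold is given. The opposite arm, miR-181c-3p, had slightly more counts in all (17 against 11) but in other libraries, with 9 in control 2, 5 in IS 1, 2 in control 3, 1 in IS 2 and 0 in control 1 and IS 3. Control 2 and IS 1 were also the libraries with the highest miR-181a-1-3p, whose sequence differs from that of miR-181c-3p by the 2 substitutions given above.

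The other member of this pair, miR-181d-5p, was at 44.4, 68.0 and 115 CPM in control 1, 2 and 3, from 12, 16 and 50 counts, and at 221, 167 and 231 CPM in IS 1, 2 and 3, from 33, 53 and 29 counts. Every IS library was above every control library. The gap between the nearest of them, IS 2 and control 3, was within counting error, with Wilson intervals of 127.7 to 218 and 87.1 to 151 CPM. Among the 206 miRNAs that passed the filter on low counts, this was the only one with all 3 IS libraries above all 3 control libraries (0.485%), and 1.46% had groups that did not overlap in either direction. As miR-181d-5p had been singled out for these same values, nothing is read from this share.

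Within a library, the order of the levels was the same for most pairs of members. Counts of miR-181a-5p exceeded those of miR-181b-5p in 6 of 6 libraries, by a mean log2 ratio of 2.83 ± 0.49 (exact two-sided sign-flip permutation over the 6 libraries, unadjusted p = 0.031, the smallest that 6 libraries allow, adjusted p = 0.036 over 7 comparisons). They exceeded those of miR-181d-5p in 6 of 6 as well, by 2.64 ± 1.18. Ratios that hold miR-181d-5p are given as a description, since the family was selected on its values. The second of these means joins groups that did not overlap, at 3.51 ± 0.42 over the 3 control and 1.77 ± 1.02 over the 3 IS libraries. Counts of miR-181a-5p also exceeded those of miR-181c-5p in 6 of 6 libraries, by 28.9 times in IS 2 and, where miR-181c-5p had 0 counts, by at least 17.0 (IS 1) to 83.0 (control 2) times against the floor of 3 counts. In control 3, where miR-181c-5p had 3 counts, 428 counts of miR-181a-5p stood against them. Both miR-181b-5p and miR-181d-5p were above miR-181c-5p in 6 of 6 libraries. Where miR-181c-5p had 0 counts, any detected row is above it, and it had counts in only 2 libraries, 11 in all. No p-value is therefore given for the order against miR-181c-5p. The 7 comparisons of the adjustment nonetheless include the pairs with miR-181c-5p and miR-181d-5p. All of these except miR-181b-5p with miR-181d-5p stood at the smallest p, so the adjusted p of 0.036 depends on them. With any 1 library left out, the adjusted p of miR-181a-5p against miR-181b-5p rose to 0.073, as 5 libraries cannot reach 0.05. The mature forms are 22 to 24 bases long, and counts were not divided by length.

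The near-identical pair of miR-181b-5p and miR-181d-5p had no common order. In control, miR-181b-5p had 1.75 and 3.0 times the counts of miR-181d-5p in control 1 and 2, and the same count, 50, in control 3. In IS the ratio was 0.182 and 0.358 in IS 1 and 2, and 1.28 in IS 3. Over the 6 libraries the mean log2 ratio was -0.19 ± 1.46, with miR-181b-5p higher in 3 of 6. This too is a description, as the ratio holds miR-181d-5p. With both rows added together, which sets aside the uncertain split at the C12U substitution, the sums were 122, 272 and 229.6 CPM in control and 261, 227 and 525 CPM in IS, and the groups overlapped. Of these summed counts miR-181d-5p took 36.4, 25.0 and 50% in control and 84.6, 73.6 and 43.9% in IS, so that IS 3 lay within the control range.

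The make-up of the 5p counts followed from these levels. In the control libraries miR-181a-5p took 81.3, 79.6 and 80.6% of the counts of the 4 5p arms, a range of less than 2 percentage points. In IS it took 56.7, 74.3 and 72.7%. The 5p arms of the chromosome 8 pair together took 6.82, 5.11 and 9.98% in control and 36.7, 19.6 and 11.98% in IS, nearly all of it miR-181d-5p. The 95% Wilson interval of IS 3 (8.47 to 16.7%) overlapped those of control 1 (3.94 to 11.5%) and control 3 (7.71 to 12.8%), and IS 1 rested on the fewest 5p counts (90 in all). The difference of the means was 15.5 percentage points, or 8.50 without IS 1. As these shares hold miR-181d-5p, they describe the same values again and are not tested.

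**Figure D2:**
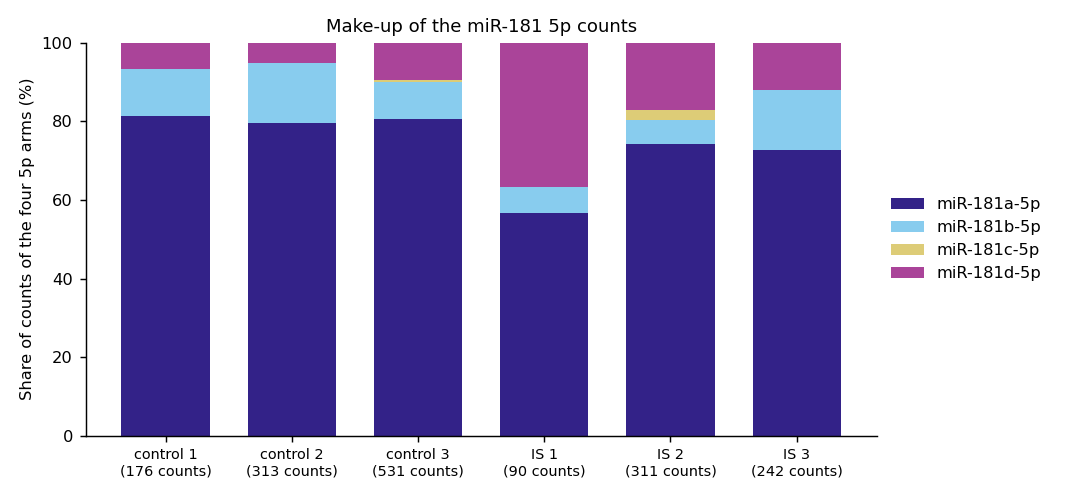
Share (vertical, percent) of each 5p arm in the summed counts of the 4 5p arms, stacked, for each of the 6 libraries (horizontal, with the summed counts). In the control libraries the miR-181a-5p part ends between 79.6 and 81.3%, and the miR-181d-5p part at the top is widest in IS 1 (36.7%).

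The least steady member beside miR-181c-5p was miR-181a-1-3p, the arm of the chromosome 1 hairpin opposite to miR-181a-5p and usually taken as its passenger strand. It was at 33.3, 128 and 13.8 CPM in control 1, 2 and 3, from 9, 30 and 6 counts, and at 161, 75.6 and 15.9 CPM in IS 1, 2 and 3, from 24, 24 and 2 counts, a range of 11.7 times, against 4.10 times for miR-181a-5p. The groups overlapped, with means of 58.2 ± 60.8 and 84.1 ± 72.8 CPM (n = 3 per group). The 95% Wilson interval of control 3 ended at 30.1 CPM, and those of control 2 and IS 1 began at 89.3 and 108 CPM. Its library order was not that of its partner: IS 1 was the highest library of miR-181a-1-3p and the lowest of miR-181a-5p.

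The ratio of the arms therefore varied widely. Counts of miR-181a-5p were 15.9, 8.30 and 71.3 times those of miR-181a-1-3p in control 1, 2 and 3, and 2.13, 9.63 and 88 times in IS 1, 2 and 3, the last against 2 counts. The 5p arm was higher in 6 of 6 libraries, with a mean log2 ratio of 3.91 ± 1.94 (exact sign-flip permutation, adjusted p = 0.036). Between the groups the log2 ratio differed by -0.85, from 4.33 ± 1.55 in control to 3.48 ± 2.54 in IS (exact permutation p = 0.8, two-sided, n = 3 per group, adjusted p = 0.8). This difference was 0.36 without IS 1 and 0.0099 without control 3. Since miR-181a-5p also comes from the chromosome 2 hairpin, the ratio is not that of 1 hairpin alone.

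**Figure D3:**
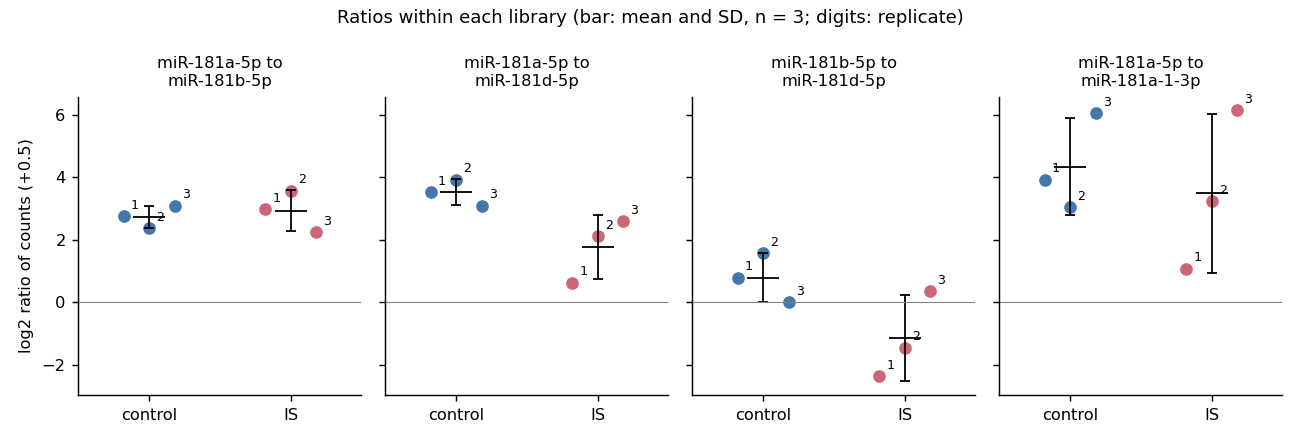
log2 ratio of counts plus 0.5 (vertical) within each library for 4 pairs of members, control in blue and IS in red, with the mean and SD of each group (n = 3) and the replicate number beside each point. The ratio of miR-181a-5p to miR-181b-5p stays between 2.23 and 3.57, that to miR-181a-1-3p runs from 1.07 to 6.14, and the ratio of miR-181b-5p to miR-181d-5p lies on both sides of 0.

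Whether vesicles of IS-stimulated cells carried other amounts of miRNAs than control vesicles was asked of the whole table with the edgeR quasi-likelihood test, and 0.0% of the 206 tested miRNAs passed an adjusted p of 0.05, miR-181a-5p, miR-181b-5p and miR-181a-1-3p being among those that did not. The fifth member, miR-181c-5p, did not pass the filter on low counts. At an unadjusted p under 0.05 there were 3 rows in edgeR, among them miR-1a-3p and miR-1b-5p, which repeat the same counts. Without the filter on low counts edgeR called 0 with 13 rows at that level, and DESeq2 called 0 with 14. The log2 fold change of IS against control was -0.10 (SE 0.54, 95% interval -1.29 to 1.09) for miR-181a-5p and -0.13 (SE 0.85, -2.01 to 1.75) for miR-181b-5p. For miR-181a-1-3p it was 0.75 (SE 1.15, -1.80 to 3.29), and for miR-181d-5p, as a description, 1.51 (SE 0.71). The intervals of the first 3 hold changes of more than 2-fold in both directions, so similar levels in the groups are not shown either. The signs of these 3 turned with some library left out. The value of miR-181a-5p was 0.053 without IS 1 and -0.77 without IS 3, and that of miR-181b-5p was 0.16 without IS 2 and -1.51 without IS 3. For miR-181a-1-3p it was -0.39 without IS 1 and 1.497 without control 2. The value of miR-181d-5p was 0.95 without control 1, or 1.33 with the filter and scaling of all 6 libraries kept, and for miR-181b-5p and miR-181d-5p added to 1 row it was 0.70 (SE 0.59).

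**Figure D4:**
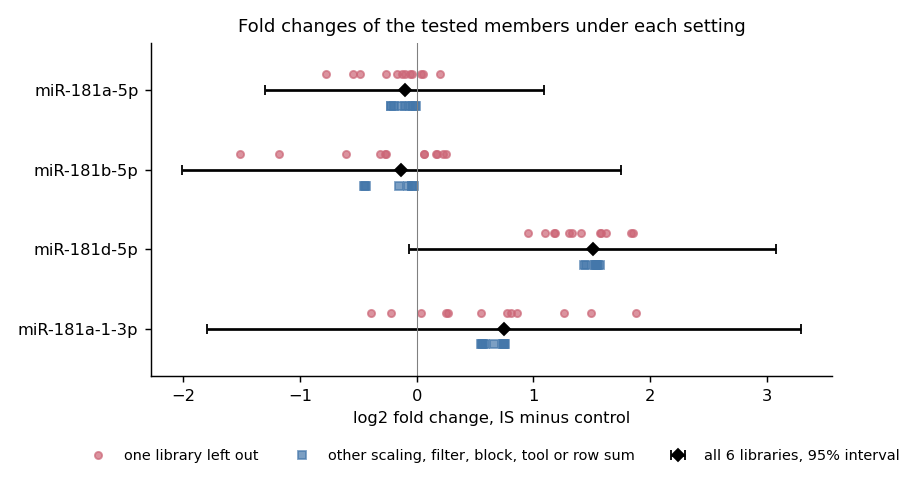
log2 fold change of IS against control (horizontal) for the 4 members that passed the filter on low counts. Values are from all 6 libraries with the 95% interval (black), with 1 library left out (red) and under other settings (blue). The family was selected on miR-181d-5p, so its interval is a description and is not read as a test. The red points of miR-181a-5p, miR-181b-5p and miR-181a-1-3p fall on both sides of 0, and those of miR-181d-5p run from 0.95 to 1.85.

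Set among all 206 tested miRNAs, whose median log2 fold change was 0.022 and of which 52.9% had a value above 0, the family was spread out. By size of the log2 fold change, counted from the highest, miR-181d-5p was 4th, miR-181a-1-3p 19th, miR-181a-5p 130th and miR-181b-5p 137th. The summed level of the 5 members was 684, 1458 and 1233 CPM in control and 764, 1056 and 1941 CPM in IS, between 0.0684 and 0.194% of the counts. Its group means, 1125 ± 398 and 1253 ± 613 CPM, differed by 128 CPM, less than either SD, and without miR-181d-5p the difference was -2.27 CPM.

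**Figure D5:**
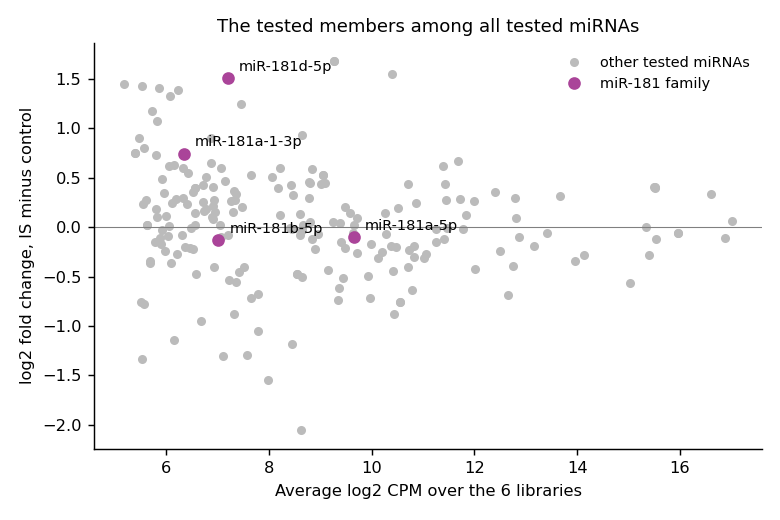
log2 fold change of IS against control (vertical) by average log2 CPM (horizontal) for the 206 tested miRNAs, with the 4 tested members in purple. The points of miR-181a-5p and miR-181b-5p lie near 0, at -0.10 and -0.13, with miR-181a-1-3p at 0.75 and miR-181d-5p at 1.51 above them.

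The miRNAs with patterns most like those of the members were found by the root-mean-square difference of log2(CPM + 1), centred for each miRNA, over the 6 libraries, among 190 tested miRNAs of other families, each set of repeated rows counted once. The nearest to miR-181a-5p were miR-199a-5p (0.32), a miRNA of mesenchymal cells, the widely expressed miR-103-3p (0.34) and miR-192-5p of liver and gut (0.37), against a median of 0.96 over the 190. All 3 were, like miR-181a-5p, highest in IS 3. The levels compared here were CPM without the TMM scaling factors of the edgeR fit. Those factors were also highest in IS 3 (1.23) and lowest in IS 1 (0.837) and control 1 (0.838). Their part in the likeness was not tested. The value for miR-181b-5p was 0.45, so these 3 were nearer than its hairpin neighbour, while miR-181d-5p (1.08) and miR-181a-1-3p (1.82) were farther than the median. Nearest to miR-181d-5p was the heart and skeletal muscle miRNA miR-1a-3p (0.44), followed by miR-494-3p (0.57) of the imprinted Dlk1-Dio3 cluster and miR-362-5p (0.61) of an X-linked cluster, against a median of 1.20. As miR-181d-5p had been singled out for its high IS values, a search on these values favours miRNAs with higher IS means, as all 3 had. Nothing is read from their likeness. The levels of miR-1a-3p were 185, 276 and 436 CPM in control and 1159.5, 359 and 1257 CPM in IS, with IS 2 within the control range. The hairpin neighbour of miR-181d-5p, miR-181c-5p, was not tested. The near-identical paralogue of miR-181d-5p, miR-181b-5p, stood at 1.36 from it, beyond the median.

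Of other lymphocyte-associated miRNAs, a list of 15 without the miR-181 family, 13 were tested, 9 had a log2 fold change above 0 and 0 passed the threshold. Their median was 0.20, against 0.022 for all 206 tested miRNAs, 52.9% of which lay above 0 too. The most abundant were miR-26b-5p (6723 ± 2324 CPM in control and 7606 ± 3033 CPM in IS), which many tissues express, miR-146a-5p, which dampens NF-kB signalling (3182 ± 1479 and 3685 ± 2351 CPM), and miR-191-5p (2818 ± 1179 and 2578 ± 435 CPM). The miRNAs used here as lymphocyte markers are given as values, which do not by themselves show the source of the vesicles. The mature lymphocyte miRNA miR-150-5p was at 92.5, 242 and 836 CPM in control and 101, 1094 and 429.5 CPM in IS, highest in IS 2 and control 3, where miR-181a-5p was of middle rank. The library with the highest miR-181a-5p, IS 3, thus had less miR-150-5p than IS 2 and control 3. The other lymphocyte markers were miR-342-3p, at 89.6 to 191 CPM in control and 134 to 231 CPM in IS, and miR-155-5p, which was at 0 counts in IS 1.

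Markers of each cell type are given beside the miR-181d-5p values as the summed CPM of their list, and their part in those values was not tested. The 3 lymphocyte miRNAs summed to 329 to 1238 CPM in control and 235 to 1636 CPM in IS. The 2 arms of the myeloid miR-223 summed to 156 to 1441 and 53.6 to 811 CPM, and those of miR-142a, found in all leukocytes, to 5276 to 20860.3 and 6633 to 25016 CPM. Red cell miRNAs (4 of 5 with a row) summed to 93435 to 186873 CPM in control and 120628 to 223132 CPM in IS, far above the lymphocyte list. The liver pair summed to 24325 to 113012 and 32744.5 to 107525 CPM, above the 3 lymphocyte miRNAs in every library. The platelet and endothelial pair summed to 9055 to 24461 and 4834 to 26477 CPM, and the brain pair to 74.0 to 824 and 342 to 643 CPM. Heart and skeletal muscle miRNAs (5 of 6 with a row) summed to 366 to 2423 CPM in control and 1661 to 4799 CPM in IS. Of its 4 tested members 3 had a log2 fold change above 0, beside 52.9% of all 206 tested miRNAs, and 0 passed the threshold. Their median was 0.92, against 0.022 for all tested miRNAs. Its miR-1a-3p had a log2 fold change of 1.68 (SE 0.62) and its miR-206-3p one of 1.55 (SE 1.02), beside the 1.51 of miR-181d-5p. Its miR-133a-3p was at 0.28 (SE 1.04) and its miR-499-5p at -0.098 (SE 0.82). The untested miR-208b-3p had means of 5.83 CPM in control and 2.10 CPM in IS. The medians of the other 7 lists ran from -0.50 (myeloid) to 0.44 (brain, 1 member tested). Among the heart, skeletal muscle and brain markers, miR-208b-3p was at 0 in control 2, IS 1 and IS 3. The brain miRNA miR-124-3p was at 0 in IS 3, with 4 or fewer counts in each of the other libraries.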

How the data were processed

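Per the labels' protocols, RNA of the vesicles was isolated by exoRNeasy Maxi and the small RNA libraries were prepared with NEBNext reagents. The submitters' processing notes name CASAVA 1.8 and Bowtie, without a role. Not given in the sources used here are the genome build, the miRBase release and the rule for reads that match several miRNAs. The table the authors deposited has 620 rows with a read count and a TPM per library. Each deposited TPM is the count per 1000000 counts of its library, with no length term, and is written CPM. Library names in the labels gave the groups and replicate numbers.

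All counts were fitted together in edgeR 4.0.16 (R 4.3.3) with the quasi-likelihood test, TMM factors, filterByExpr (minimum count 10, minimum total 15, 206 miRNAs kept) and group as the only term. P-values were adjusted by Benjamini-Hochberg with a threshold of 0.05. SE is the size of the log2 fold change divided by the square root of F. Ratios within a library used counts plus 0.5 and exact permutations. The code of the fit was first run on simulated counts with planted changes, which is no measure of its power in these libraries. Alternatives were other scalings and filters, a replicate block, leaving out each library, DESeq2 1.42.0, limma 3.58.1 on log2(TPM + 1) or log2(TPM + 0.5), and other pseudocounts. The members, lists and naming rule (all miR-181 rows, the 3 nearest patterns, the 3 most abundant of a list) were chosen with earlier results of these data known. Leaving out a library with filter and scaling kept, adding miR-181b-5p to miR-181d-5p, and naming further markers were chosen after the values were seen. No member was among the 13 pairs of rows with repeated counts. These rows do enter the library totals by which every CPM is divided. With totals taken without the repeats, the summed level of the 5 members differed between the groups by 172 CPM, against 128 CPM.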

Additional observations from a re-analysis of the deposited data

How the results depend on the processing

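The count of miRNAs past the adjusted threshold was 0 under each other scaling, filter, block and left-out library in edgeR, and with DESeq2 and limma, and 3 at an unadjusted p under 0.05. With a library left out, refitted or with the scaling kept, the log2 fold change ran from -0.77 to 0.20 for miR-181a-5p, from -1.51 to 0.25 for miR-181b-5p, from -0.39 to 1.88 for miR-181a-1-3p (1.497 refitted without control 2) and from 0.95 to 1.85 for miR-181d-5p. Over the whole table the median, 0.022 with 6 libraries, was then -0.27 to 0.050 refitted and -0.058 to 0.12 at fixed scaling. The values that turned sign were 0.053, 0.033 and 0.20 for miR-181a-5p, 0.060, 0.062, 0.16, 0.25, 0.23 and 0.18 for miR-181b-5p, and -0.39 and -0.22 for miR-181a-1-3p, and no other scaling, filter or tool turned a sign. The difference between the groups ran from -0.12 to 0.55 for the log2 ratio of miR-181a-5p to miR-181b-5p, and from -2.17 to 0.36 for the arm ratio, with 0.0099 without control 3. That of miR-181c-5p to miR-181d-5p was -0.35 (leaving out a library, -1.46 to 0.24, and from summed counts 0.72), and rests on 11 counts of miR-181c-5p. The summed level of the 5 members differed by -215 to 373 CPM, and the share of the chromosome 8 pair by 8.50 to 20.8 percentage points. Within libraries, the mean log2 ratio of miR-181a-5p ran from 2.68 to 2.95 to miR-181b-5p, 7.004 to 7.84 to miR-181c-5p, 2.38 to 3.04 to miR-181d-5p and 3.46 to 4.47 to miR-181a-1-3p. That of miR-181b-5p ran from 4.08 to 5.16 to miR-181c-5p and -0.54 to 0.25 to miR-181d-5p (0.246 without IS 1 and 0.064 without IS 2), and that of miR-181c-5p to miR-181d-5p from -5.10 to -4.42. With 5 libraries these adjusted p-values cannot pass 0.05, by construction. The ratios to miR-181c-5p depend on the pseudocount, with 7.33 at 0.5 counts and 6.62 at 1 count for miR-181a-5p.

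The labels do not say that equal replicate numbers mark shared animals or batches, and the deviations of same-numbered libraries correlated at 0.31, -0.33 and -0.054, so the numbers were not taken as pairs. With a replicate block, edgeR called 0 miRNAs, and the log2 fold change was -0.20 for miR-181a-5p, -0.44 for miR-181b-5p, 0.59 for miR-181a-1-3p and 1.54 for miR-181d-5p. As paired differences, the log2 ratio of miR-181a-5p to miR-181b-5p differed by 0.20 (exact sign-flip permutation p = 0.75, where 3 pairs allow no less than 0.25).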
